A study of Sus scrofa with 11 samples.

Results

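Heart slices kept for 10 days in stimulated culture were compared with slices kept for 2 days in the same culture, gene by gene. The comparison takes 3 libraries labelled day 10 and 2 labelled day 2, that is 5 of the 11 libraries of the series, and it leaves out the fresh slices. All libraries came from heart tissue of Yorkshire pigs aged 3 months with a wild-type genotype, and they held total RNA taken up in Trizol and made into TruSeq libraries. The labels call the cultures stimulated without saying how, and the study describes a biomimetic culture system for heart slices. The labels do not say whether replicates came from separate animals, so p-values measure only the spread between these samples, which may be technical. Expression was deposited as FPKM, a fragment number scaled to the length of the gene and the size of the library. A gene was tested when its mean was at least 1 FPKM over the 8 cultured libraries, which held for 12586 of 16319 genes. Of the tested genes, 8101 had a symbol and 4485 had an identifier alone.

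Heart muscle contracts through sarcomeres, in which myosin thick filaments pull on actin thin filaments and troponin and tropomyosin make the pull depend on calcium. Cardiomyocytes are packed with mitochondria and buffer their energy demand with creatine kinases. Between them lie fibroblasts, which make collagens and other matrix proteins, and which take on smooth muscle proteins such as transgelin and smooth muscle alpha-actin when they become myofibroblasts. Slices in culture hold all of these cells, and a bulk RNA library mixes them.

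Of the 12586 tested genes, 150 passed the test (1.19%), with 82 higher (0.652%) and 68 lower (0.54%) at day 10. Of 17 sarcomere genes 12 fell, of 13 collagen genes 3 rose, of 12 Wnt pathway genes 4 rose, and in the insulin-like growth factor system 2 of 11 genes rose and 1 fell. Without day 2 replicate 1, 8 of the sarcomere calls held and none of the collagen or Wnt pathway calls did. The test was limma on log2(FPKM + 1) over the 8 cultured libraries, two-sided, with Benjamini-Hochberg adjustment at 0.05. The smallest change among these genes was 1.85 on the log2 scale, in either direction, and a log2 fold change on this scale understates the ratio of genes with low FPKM. In each of the 150 genes, every day 10 library lay on the same side of both day 2 libraries. That held for 22% of all tested genes, for 8.94% with day 10 higher and for 13% with day 10 lower. With 3 against 2 libraries an exact permutation test of a single gene cannot go below a two-sided p of 0.2. The calls thus rest on the model behind limma, which takes errors as normally distributed. It had 5 residual degrees of freedom per gene, day 6 included, and 7.57 prior ones from the spread shared across genes. An unadjusted p under 0.05 was found for 1378 genes. The median log2 fold change of all tested genes was -0.04. With median ratio scaling of the libraries 118 genes were higher and 49 lower.

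The reads behind the table numbered 16252171 and 12871234 in the day 2 libraries and 11695060 to 16240858 in the day 10 libraries, as recovered from the FPKM steps. Day 2 replicate 1 stood apart, with 4017 genes at 0 against 1533 in day 2 replicate 2 and 1771 to 2331 in the day 10 libraries. The median absolute log2 difference per gene was 0.99 between the day 2 libraries and 0.62 between pairs of day 10 libraries. Without day 2 replicate 1 the test called 46 genes, of which 40 were among the 150. With day 2 replicate 2 left out it called 566, of which 139 were among the 150. With day 2 down to 1 library, the spread of the lone library is taken from the other days. Under all 22 alternatives that were run, 0 of the 150 genes had the opposite sign. As day 2 and day 10 did not overlap in these genes, no left-out library, pseudocount or filter could turn a sign. Over the 8 fits that each left out 1 library, 34 genes were called every time, 14 higher and 20 lower. The median log2 fold change of 21 of the 51 gene lists turned its sign in at least 1 of the 5 fits that left out a day 2 or day 10 library, and among the 10 lists with at least 2 calls this held for 1, glycolysis. Gene length, read from the FPKM steps of 12194 genes, was related to differences between libraries, with a Spearman rho across genes of -0.20 for day 2 replicate 1 minus replicate 2 and -0.34 for day 10 replicate 1 minus replicate 3. The rho of length was -0.22 with the day 10 mean minus day 2 replicate 2 and 0.02 with the day 10 mean minus day 2 replicate 1. Genes are not independent replicates, and the part of length in the results was not tested.

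The label heart was checked against cardiomyocyte markers. The 7 tested markers summed to 9683 and 1792 FPKM in the day 2 libraries and to 61.9, 33.2 and 14.9 FPKM in the day 10 libraries. Each of the 7 was still above 0 in every day 10 library, at levels close to 0 next to those of day 2. All 7 were lower in every day 10 library than in both day 2 libraries. Of the 7, 5 passed the test (MYH6, TNNT2, MYL3, ACTC1 and ACTN2), RYR2 and NPPB did not, and the median log2 fold change was -6.44. Of the 7, 5 also passed when day 2 replicate 1 was left out. In bulk tissue, fewer cardiomyocytes and less of these RNAs per cardiomyocyte cannot be told apart, and this touches each muscle gene below.

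The sarcomere list had the most lower calls of the 51 lists. Of 17 tested members, 12 fell, 5 did not pass and 0 rose, with a median log2 fold change of -4.90. In the thick filament, MYH6 (ENSSSCG00000002029), the alpha myosin heavy chain gene, stood at 1106 and 359.8 FPKM at day 2. It stood at 2.53, 1.39 and 1.302 FPKM at day 10. The log2 fold change was -7.88 ± 0.58 (SE; limma adjusted p = 8.08e-05), and the ratio of mean FPKM was 421 to 1 in favour of day 2. Brackets after other genes likewise hold the log2 fold change of day 10 against day 2 with its SE and adjusted p. The MYH6 value was the lowest value among all called genes, and the gap between the days was far wider than the spread within either day. MYL3 (ENSSSCG00000011325), the ventricular essential light chain that sits on the myosin neck, was at 4687 and 898 FPKM at day 2 and at 42.6, 22.1 and 6.01 FPKM at day 10. All day 10 libraries were far below both day 2 libraries (-6.74 ± 0.80, limma adjusted p = 0.00149). The thick filament regulator MYBPC3 (ENSSSCG00000013236), cardiac myosin-binding protein C, went from 73.8 and 16.2 FPKM to 0.346, 0.103 and 0.162 FPKM, all under 1 FPKM at day 10 (-4.90 ± 0.62, limma adjusted p = 0.00237).

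In the thin filament, TNNT2 (ENSSSCG00000023031), cardiac troponin T, which ties the troponin complex to tropomyosin, was at 3425 and 327 FPKM at day 2 and 10.3, 7.12 and 5.26 FPKM at day 10 (-7.00 ± 0.79, limma adjusted p = 0.00115). TNNC1 (ENSSSCG00000011441), the calcium sensor of troponin, was at 6187 and 617 FPKM and then at 82.8, 55.2 and 7.79 FPKM (-5.82 ± 1.00, limma adjusted p = 0.0150). The day 2 libraries of both genes were far apart, and each of them was still above all day 10 libraries. Cardiac alpha-actin ACTC1 (ENSSSCG00000004803) went from 359.7 and 166 FPKM to 4.64, 0.913 and 1.10 FPKM (-6.44 ± 0.56, limma adjusted p = 2.15e-04). Skeletal alpha-actin ACTA1 (ENSSSCG00000010190), also made in heart muscle under load, went from 2377 and 468 FPKM to 23.6, 12.4 and 9.64 FPKM (-6.12 ± 0.65, limma adjusted p = 9.90e-04). The actins, like the myosin heavy chains, are close in sequence, and how reads that fit several of them were counted is not given in the sources used here, so their separate levels are uncertain.

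At the Z-disc, where thin filaments of neighbouring sarcomeres are anchored, ACTN2 (ENSSSCG00000010144), alpha-actinin-2, was at 58.3 and 31.6 FPKM at day 2 and at 0.633, 0.430 and 0.361 FPKM at day 10 (-4.90 ± 0.48, limma adjusted p = 5.04e-04). CSRP3 (ENSSSCG00000013354), the muscle LIM protein, went from 658 and 59.3 FPKM to 13.002, 1.84 and 0.663 FPKM (-5.62 ± 0.96, limma adjusted p = 0.0146). Telethonin TCAP (ENSSSCG00000017500), which caps titin, went from 535 and 105 FPKM to 21.2, 3.57 and 1.79 FPKM (-5.18 ± 0.89, limma adjusted p = 0.0150). At the M-band, which holds thick filaments in register, the myomesin genes MYOM1 and MYOM2 fell, with log2 fold changes of -3.30 and -3.75. In CSRP3 and TCAP day 10 replicate 1 was several times above the other two day 10 libraries and still under both day 2 libraries. Without day 2 replicate 1, 8 of the 12 sarcomere calls held. TNNC1, CSRP3, TCAP and MYOM2 then had a limma adjusted p of 0.0984, 0.0971, 0.108 and 0.0697. CSRP3 and TCAP also missed without day 10 replicate 2 (0.0688 and 0.0697) or replicate 3 (0.0662 and 0.0662).

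**Figure D1:**
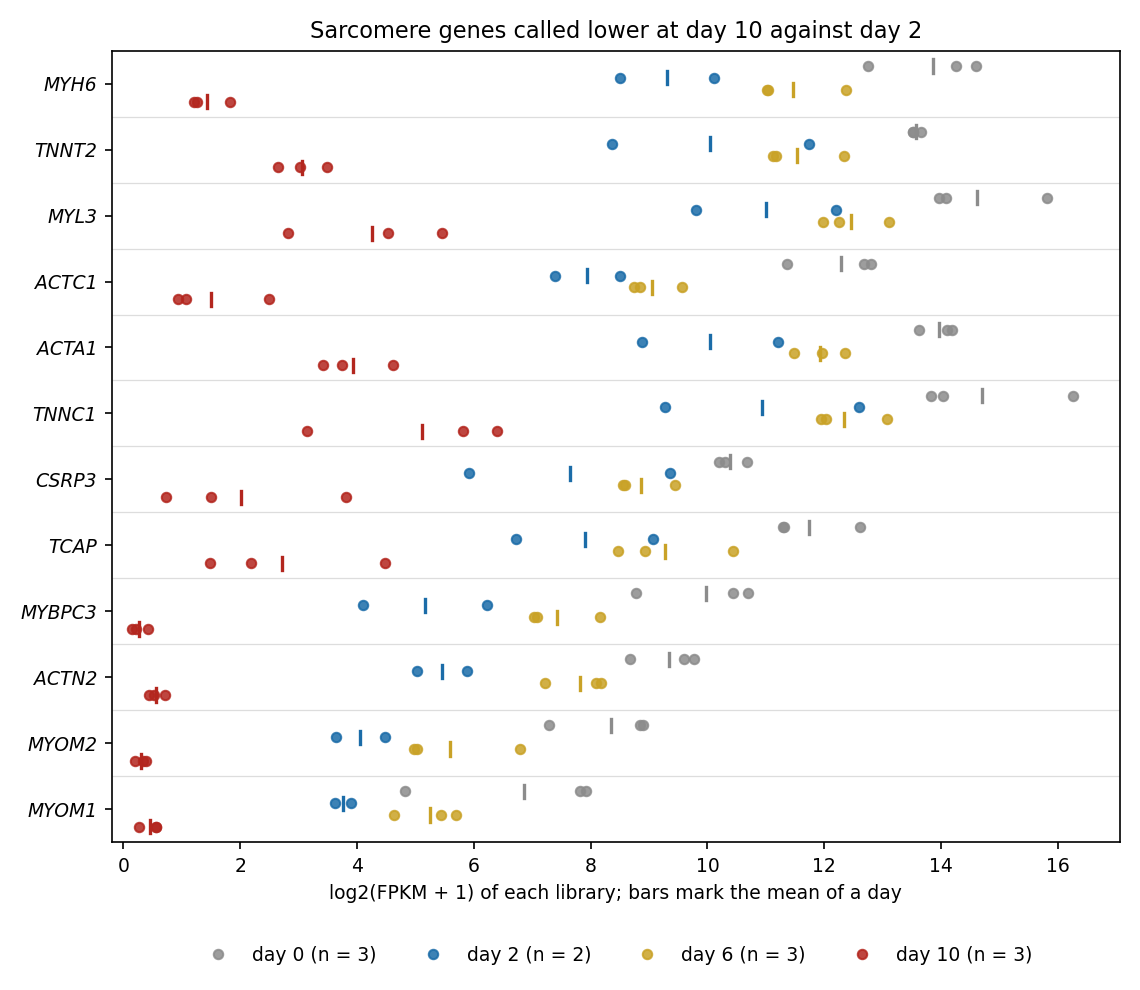
Each point is log2(FPKM + 1) of 1 library for the 12 sarcomere genes called lower, by day in culture, and bars mark the mean of a day. Day 10 points lie to the left of both day 2 points in every gene, and for MYH6 they stand at up to 2.53 FPKM against 359.8 and 1106 FPKM at day 2.

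The 5 sarcomere genes that did not pass were LMOD2, NEBL, MYOT, MYL4 and TPM1. Leiomodin-2 LMOD2, which sets thin filament length, was at 49.1 and 39.7 FPKM and 11.5, 0.827 and 10.6 FPKM (-2.81 ± 0.71, limma adjusted p = 0.0901). Tropomyosin TPM1, which also makes non-muscle isoforms, was at 1312 and 349 FPKM at day 2 and 477, 307 and 899.8 FPKM at day 10 (-0.41 ± 0.64, limma adjusted p = 0.896). For TPM1 the groups overlapped. MYL4 overlapped as well, while LMOD2, NEBL and MYOT did not.

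Of 8 tested genes that respond to mechanical load or mark the fetal programme of heart muscle, 3 fell (ACTA1, ANKRD1 and CSRP3), and the list median was -2.81. ANKRD1 (ENSSSCG00000010461), a nuclear and titin-bound ankyrin repeat protein induced by stretch, was at 2620.4 and 357 FPKM at day 2. At day 10 it was at 88.1, 1.27 and 19.3 FPKM (-5.92 ± 1.19, limma adjusted p = 0.0336). Its day 10 libraries spread widely, and the call was lost without day 2 replicate 1, day 6 replicate 2, day 10 replicate 2 or day 10 replicate 3 (limma adjusted p of 0.193, 0.0666, 0.0688 and 0.0993). NPPB, which codes for B-type natriuretic peptide, was at 44.5 and 4.64 FPKM and 1.23, 0.637 and 0.734 FPKM, did not overlap and did not pass (-3.11 ± 0.74, limma adjusted p = 0.0708). It passed without day 2 replicate 2 (limma adjusted p = 0.00110). Desmin DES (ENSSSCG00000020785), the intermediate filament of muscle that links Z-discs, was at 2059.8 and 213 FPKM at day 2 and at 27.9, 2.60 and 34.1 FPKM at day 10 (-5.43 ± 0.98, limma adjusted p = 0.0209). DES also stood among the smooth muscle and pericyte markers, where it was the single call, and it missed without day 2 replicate 1 (limma adjusted p = 0.127). TRIM63 (MuRF1), the ubiquitin ligase that marks sarcomere proteins for breakdown, went from 57.5 and 39.3 FPKM to 2.93, 0.292 and 2.05 FPKM (-4.28 ± 0.52, limma adjusted p = 0.00185) and was the single call among 19 autophagy and lysosome genes.

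Among 9 creatine and energy buffering genes 1 fell. CKMT2 (ENSSSCG00000014128), the sarcomeric mitochondrial creatine kinase, was at 127 and 47.0 FPKM at day 2 and at 0.486, 0 and 0.0437 FPKM at day 10, that is listed at 0 in 1 library and under 1 FPKM in the others (-6.08 ± 0.52, limma adjusted p = 2.15e-04). CKB, the brain-type creatine kinase, was at 235 and 69.9 FPKM and 160.2, 113 and 159 FPKM (0.14 ± 0.55, limma adjusted p = 0.966). Among 17 glycolysis genes 2 fell, 0 rose and the median was 0.36, or -0.03 without day 10 replicate 3. They were muscle enolase ENO3 (ENSSSCG00000017904), from 826 and 132 FPKM to 24.3, 9.42 and 4.99 FPKM (-4.83 ± 0.75, limma adjusted p = 0.00957), and muscle phosphoglycerate mutase PGAM2 (ENSSSCG00000016720), from 247 and 29.9 FPKM to 2.80, 2.01 and 3.12 FPKM (-4.60 ± 0.70, limma adjusted p = 0.00804). Their counterparts of most tissues pointed the other way without passing. ENO1 was at 1559 and 1407 FPKM and 3665, 2888 and 3362 FPKM (1.15 ± 0.47, limma adjusted p = 0.383), and PGAM1 was at 547 and 730.4 FPKM and 1308, 690.0 and 1040.1 FPKM (0.63 ± 0.47, limma adjusted p = 0.710). Whether the members of such a pair differed in their change was not tested. The ENO3 call was lost without day 2 replicate 1 (limma adjusted p = 0.0676).

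Of genes for excitation a minority passed, 1 of 7 for calcium handling and 1 of 10 for the intercalated disc. Over all tested genes 0.54% were called lower. Of 7 calcium handling genes, triadin TRDN, which holds the release channel to calsequestrin, fell from 17.4 and 4.27 FPKM to 0.776, 0 and 0 FPKM (-3.02 ± 0.64, limma adjusted p = 0.0423), and the median was -0.56, or 0.18 without day 2 replicate 2. RYR2, the calcium release channel of the sarcoplasmic reticulum, was at 1.45 and 4.19 FPKM at day 2 and 0.0147, 0.533 and 0.176 FPKM at day 10 (-1.54 ± 0.58, limma adjusted p = 0.331). These are low levels on both days, without overlap. None of 8 action potential channel genes passed (median -0.82). Of these, 5 had every day 10 library below both day 2 libraries, against 13% of all tested genes. The inward rectifier KCNJ4 was nearest, at 7.96 and 4.79 FPKM and then 0.0510, 0.572 and 0.229 FPKM (-2.51 ± 0.57, limma adjusted p = 0.0607). Of 10 intercalated disc genes, desmoplakin DSP, which anchors desmin at desmosomes, fell from 11.01 and 3.34 FPKM to 0.0214, 0.00888 and 0.147 FPKM (-2.77 ± 0.56, limma adjusted p = 0.0366). GJA1, the main gap junction connexin of ventricular muscle, which fibroblasts and other cells also make, was at 34.4 and 203 FPKM at day 2 and at 287, 264 and 285 FPKM at day 10 (1.72 ± 0.67, limma adjusted p = 0.353). Its day 10 libraries were tight and all above day 2, while the day 2 libraries differed several-fold. TRDN and DSP each held in 1 of the 8 fits with 1 library left out, that without day 2 replicate 2, and their largest limma adjusted p was 0.231 and 0.194, without day 2 replicate 1. GJA1 passed without day 2 replicate 2 (limma adjusted p = 0.0164).

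Mitochondrially encoded transcripts held 19.4% and 21.7% of reads at day 2 and 9.86%, 4.05% and 3.54% at day 10. The groups did not overlap. Their summed level was 243764 and 237676 FPKM at day 2 against 111702, 42312 and 35535 FPKM at day 10. In fresh slices the share of reads was 16.5%, 4.53% and 22.1% for replicates 1 to 3, so that fresh replicate 2 lay within the range of day 10. That library also stood apart with 4536 genes at 0, against 1697 and 1580 in fresh replicates 1 and 3. None of the 12 tested mitochondrially encoded genes passed, with a median log2 fold change of -2.18. Of these, 10 had all day 10 libraries below both day 2 libraries, against 13% of all tested genes. ND4, a subunit of complex I, came nearest, at 7160.0 and 5780.2 FPKM at day 2 and 1933, 824 and 836 FPKM at day 10 (-2.55 ± 0.58, limma adjusted p = 0.0621). Day 10 replicate 1 was above the other day 10 libraries in 11 of the 12 genes, all but ND4L. Without it, 3 of the 12 genes passed. Nuclear genes of oxidative phosphorylation had 0 calls of 20 and a median of -0.34, tricarboxylic acid cycle genes 0 of 18 and -0.44, and fatty acid oxidation genes 0 of 17 and -0.29, or 0.18 without day 2 replicate 2. In the last list, the muscle carnitine palmitoyltransferase CPT1B was at 9.14 and 6.87 FPKM and 0.814, 0.620 and 1.34 FPKM, without overlap (-2.23 ± 0.57, limma adjusted p = 0.0941).

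**Figure D2:**
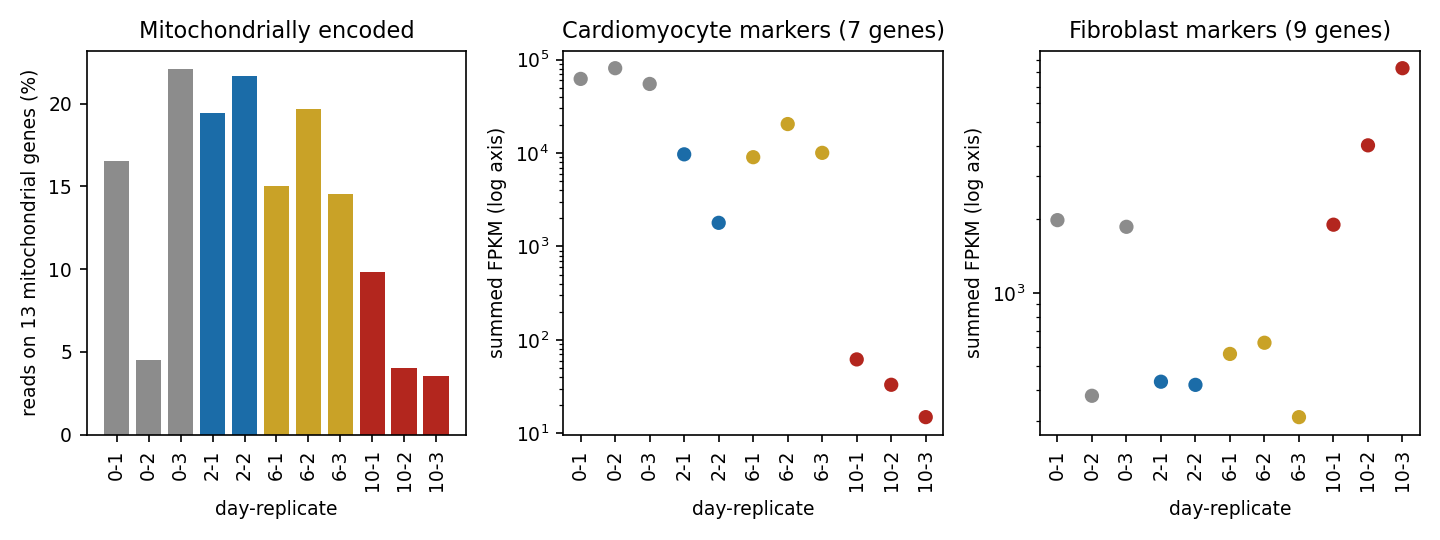
The bars give the share of reads on 13 mitochondrially encoded genes, and the points give the summed FPKM of 7 cardiomyocyte and 9 fibroblast markers on log axes, for each library by day and replicate. Day 10 libraries are the lowest for cardiomyocyte markers, at 14.9 to 61.9 FPKM, and for fibroblast markers they stand at 1903 to 8325 FPKM against 420.2 and 433 FPKM at day 2. COL3A1 alone holds 961 to 5604 FPKM of the fibroblast sums at day 10.

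All 13 tested collagen genes had a positive log2 fold change, with a median of 2.72. Of these, 3 passed, 10 did not, and 7 had every day 10 library above both day 2 libraries. COL3A1 (ENSSSCG00000016034), the type III fibrillar collagen of loose and healing tissue, was at 97.6 and 197 FPKM at day 2 and 961, 2656 and 5604 FPKM at day 10. Its log2 fold change was 4.12 ± 0.68 (limma adjusted p = 0.0122), and the ratio of means was 20.9. COL1A2 (ENSSSCG00000015326), a chain of type I collagen, went from 19.3 and 92.8 FPKM to 184, 547 and 1467 FPKM (3.603 ± 0.79, limma adjusted p = 0.0492). COL5A2 (ENSSSCG00000016035), of type V collagen, which starts fibrils, went from 5.72 and 46.3 FPKM to 101, 236 and 585 FPKM (3.76 ± 0.79, limma adjusted p = 0.0416). Day 10 replicate 1 was the lowest day 10 library in each of the 13 collagen genes, and replicate 3 the highest. The collagen genes had a median length of 2.36 times the median of all genes with a length, and the difference between these libraries moved with length over all genes, as given above. Type VI collagen genes COL6A1 and COL6A2 had log2 fold changes of 2.72 and 2.91 and did not pass (limma adjusted p = 0.146 and 0.0722). The basement membrane collagen gene COL4A2 overlapped between the days (0.53 ± 0.85, limma adjusted p = 0.899). The collagen calls depended on single libraries. Without day 2 replicate 1 none of the 13 passed, without day 2 replicate 2 there were 6, without day 10 replicate 1 there were 8, and without day 10 replicate 2, day 10 replicate 3 or any single day 6 library there was 1.

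Enzymes that modify and cross-link collagen showed the same sign for 13 of 14 genes, with a median of 1.24 and 1 call. P4HA3 (ENSSSCG00000014840), a catalytic subunit of prolyl 4-hydroxylase, was at 0.0582 and 1.95 FPKM at day 2 and at 36.2, 17.7 and 29.5 FPKM at day 10 (3.97 ± 0.59, limma adjusted p = 0.00785). It passed with each library left out in turn. Lysyl oxidase LOX, which cross-links collagen and elastin, was at 0.149 and 3.29 FPKM and 7.25, 10.8 and 27.1 FPKM, all higher at day 10, and did not pass (2.66 ± 0.70, limma adjusted p = 0.109). It passed without day 2 replicate 2 (limma adjusted p = 0.0137) and with median ratio scaling or quantile normalization. PLOD2, the telopeptide lysyl hydroxylase, was similar, at 3.03 and 20.1 FPKM and 57.2, 44.4 and 92.5 FPKM (2.76 ± 0.72, limma adjusted p = 0.1005).

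Matricellular and other matrix proteins had 3 higher and 0 lower genes of 24, a median of 1.43 and 11 genes without overlap, all higher. FMOD (ENSSSCG00000015270), fibromodulin, a small leucine-rich proteoglycan that binds collagen fibrils, was at 4.91 and 10.4 FPKM at day 2 and 91.8, 68.4 and 183 FPKM at day 10 (3.69 ± 0.54, limma adjusted p = 0.00785). Its relative lumican LUM (ENSSSCG00000000916) was at 7.96 and 19.9 FPKM and 114, 113 and 171 FPKM (3.26 ± 0.49, limma adjusted p = 0.00804). Periostin POSTN (ENSSSCG00000009361), a matricellular protein of activated fibroblasts, was at 16.2 and 32.9 FPKM and 209, 183 and 503 FPKM (3.47 ± 0.57, limma adjusted p = 0.0120). For each of the 3 genes the lowest day 10 library was several-fold above the higher day 2 library. SPARC, a collagen-binding matricellular protein, was at 161 and 468 FPKM and 939, 2008 and 3289 FPKM and missed narrowly (2.74 ± 0.64, limma adjusted p = 0.0667). It passed without day 10 replicate 1 (limma adjusted p = 0.0358). Fibronectin FN1 was at 8.03 and 50.6 FPKM at day 2 and at 50.1, 323 and 939 FPKM at day 10, so that day 10 replicate 1 fell just under the higher day 2 library (3.53 ± 0.98, limma adjusted p = 0.133). Without that library, or without day 2 replicate 2, FN1 passed (limma adjusted p of 0.0124 and 0.0241). Osteopontin SPP1 overlapped, at 121 and 28.8 FPKM and 217, 82.7 and 28.4 FPKM (0.43 ± 0.85, limma adjusted p = 0.924). Without day 2 replicate 1, COL3A1, FMOD, LUM and POSTN missed, with limma adjusted p of 0.0947, 0.0527, 0.0697 and 0.0971.

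Fibroblast markers overlap with these matrix genes. The 9 markers summed to 433 and 420.2 FPKM at day 2 and to 1903, 4022 and 8325 FPKM at day 10, with 0 of the 9 at 0 in any of the 5 libraries. The 3 that passed were COL3A1, COL1A2 and LUM, which the matrix lists hold as well, and the list median was 2.39. COL3A1 alone made up 961, 2656 and 5604 FPKM of the day 10 sums, and 97.6 and 197 FPKM of those of day 2. Decorin DCN, a proteoglycan of resting fibroblasts too, was at 254 and 55.5 FPKM and 469, 604 and 865 FPKM (2.39 ± 0.63, limma adjusted p = 0.113). Its log2 fold change was 3.47 without day 2 replicate 1. The fibroblast receptor genes PDGFRA and DDR2 overlapped between the days, with log2 fold changes of 1.67 ± 1.10 and 0.45 ± 0.69 (limma adjusted p = 0.658 and 0.895). The part of fibroblast number in the matrix gene values was not tested.

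Contractile genes of myofibroblasts had 1 higher gene of 11, 0 lower, a median of 1.95 and 7 genes without overlap. TAGLN (ENSSSCG00000015073), transgelin, an actin-binding protein of smooth muscle and myofibroblasts, was at 128 and 221 FPKM at day 2 and at 1946, 2395 and 1971 FPKM at day 10 (3.63 ± 0.66, limma adjusted p = 0.0218). The 3 day 10 libraries were close together and far above day 2. Smooth muscle alpha-actin ACTA2 had a larger log2 fold change without passing, at 1.31 and 68.8 FPKM and 264, 230.2 and 959 FPKM (4.94 ± 1.22, limma adjusted p = 0.0845), and its day 2 libraries differed strongly from each other. It passed when day 2 replicate 2 was left out (limma adjusted p = 0.00205). TAGLN missed without day 2 replicate 1, day 10 replicate 2 or day 10 replicate 3 (limma adjusted p of 0.127, 0.0839 and 0.0662). Smooth muscle and pericyte markers as a list had a median of -0.03, which was -1.19 without day 2 replicate 1 and 1.25 without day 2 replicate 2, and MYH11, the myosin of mature smooth muscle, was at 0 and 1.45 FPKM and 0, 1.21 and 0.640 FPKM.

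**Figure D3:**
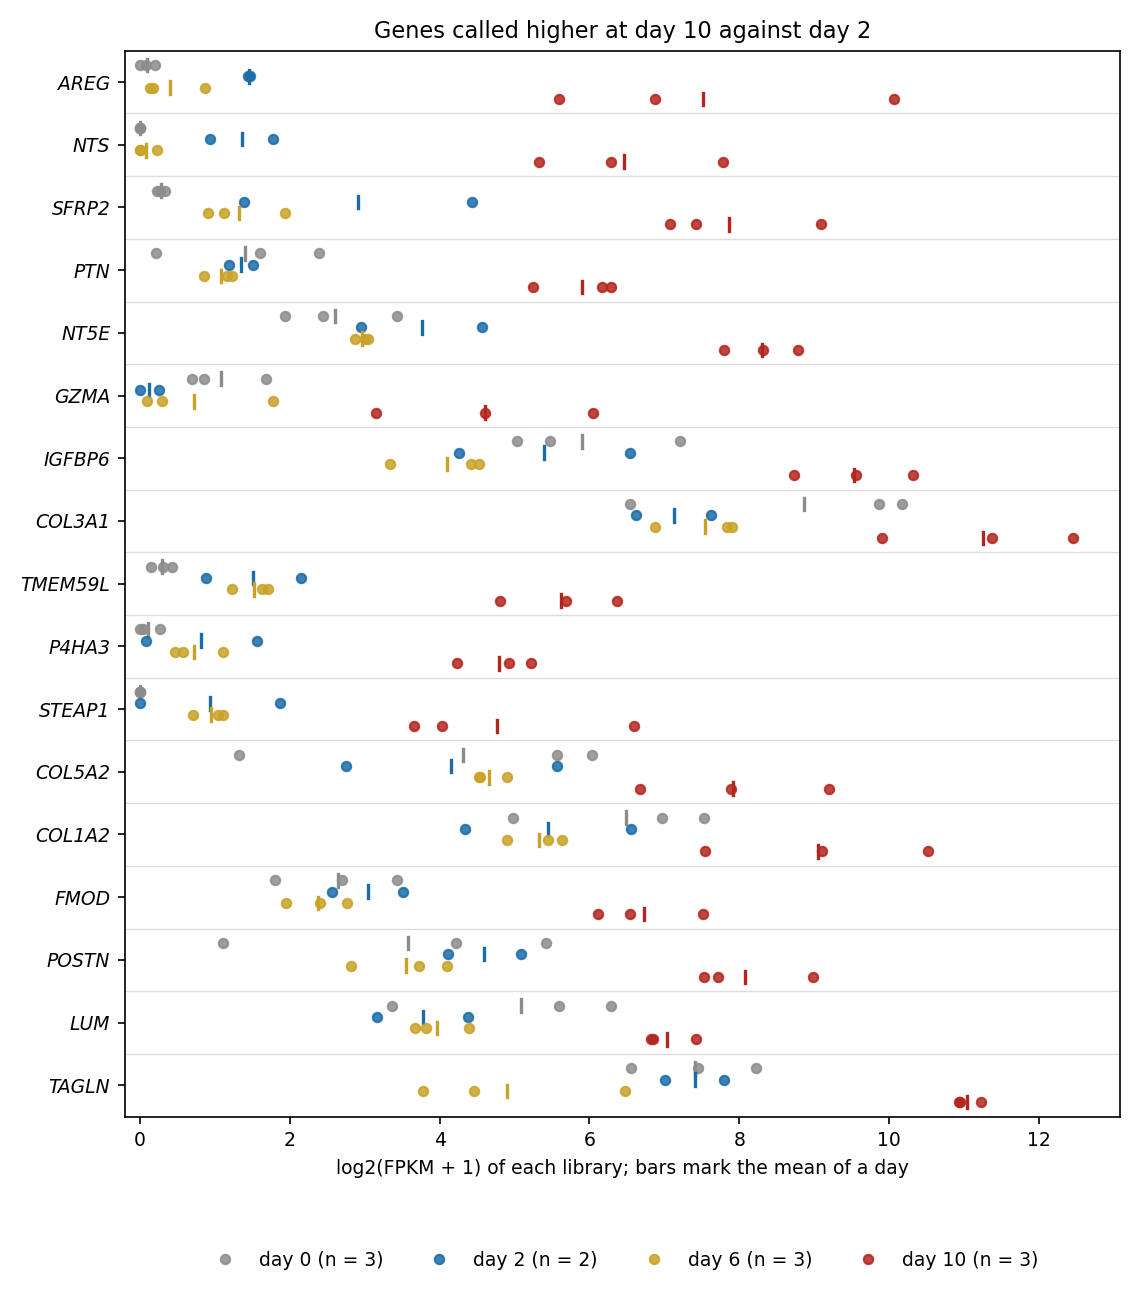
Each point is log2(FPKM + 1) of 1 library for 17 genes called higher, 11 of the 12 with the largest change and named matrix and myofibroblast genes, by day in culture, and bars mark the mean of a day. Day 10 points lie to the right of both day 2 points in every gene, for COL3A1 at 961 to 5604 FPKM against 97.6 and 197 FPKM.

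Of 12 tested Wnt pathway genes 4 were higher and 0 lower, with a median of 1.18. SFRP2 (ENSSSCG00000009004), a secreted frizzled-related protein that binds Wnt ligands, was at 1.62 and 20.5 FPKM at day 2 and 134, 171 and 545 FPKM at day 10 (4.96 ± 0.82, limma adjusted p = 0.0124). DKK3 (ENSSSCG00000013401), a secreted protein of the Dickkopf family, was at 4.80 and 12.1 FPKM and 60.4, 77.6 and 134 FPKM (3.31 ± 0.54, limma adjusted p = 0.0116). The ligand gene WNT5B (ENSSSCG00000000759) was at 3.86 and 3.03 FPKM and 75.3, 32.9 and 33.9 FPKM (3.34 ± 0.62, limma adjusted p = 0.0244), and CCN4 (ENSSSCG00000005946), the Wnt-induced matricellular protein WISP1, was at 0 and 0.367 FPKM and 6.61, 12.8 and 11.8 FPKM (3.24 ± 0.52, limma adjusted p = 0.0116). Day 2 libraries of SFRP2 were many-fold apart, and those of WNT5B were close. SFRP1, of the same family, did not pass, at 2.26 and 40.8 FPKM and 51.0, 186 and 710.3 FPKM (4.03 ± 1.04, limma adjusted p = 0.09996). It passed without day 10 replicate 1 (limma adjusted p = 0.0358). The receptor and intracellular genes did not pass, among them FZD4 (-1.32 ± 0.66), LRP6 (0.13 ± 0.63) and beta-catenin CTNNB1 (0.33 ± 0.61). Without day 2 replicate 1 none of the 4 calls held (limma adjusted p between 0.0592 and 0.0947). SFRP2 also missed without day 10 replicate 3 (0.0614), and WNT5B without any single day 10 library (0.0621 to 0.0769).

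In the insulin-like growth factor system 2 of 11 genes rose and 1 fell, with a median of 1.74, or 0.63 without day 2 replicate 1. The binding protein genes IGFBP6 (ENSSSCG00000000261) and IGFBP4 (ENSSSCG00000017472) hold insulin-like growth factors outside cells. IGFBP6 was at 91.7 and 18.1 FPKM at day 2 and 423, 1269 and 751 FPKM at day 10 (4.14 ± 0.68, limma adjusted p = 0.0120). IGFBP4 was at 164 and 338 FPKM and 1338, 1034 and 1709 FPKM (2.50 ± 0.47, limma adjusted p = 0.0266). STC1 (ENSSSCG00000009642), stanniocalcin-1, an inhibitor of the protease that cleaves IGFBP4, fell from 39.9 and 112 FPKM to 4.91, 11.1 and 9.08 FPKM (-2.92 ± 0.54, limma adjusted p = 0.0218). IGF1 itself was at 2.77 and 3.49 FPKM and 13.9, 9.39 and 29.96 FPKM, higher in each day 10 library, and did not pass (2.03 ± 0.59, limma adjusted p = 0.153). The IGFBP4 call was lost with any single library left out other than day 2 replicate 2, the IGFBP6 call without day 10 replicate 2 (limma adjusted p = 0.0571), and the STC1 call without day 2 replicate 2, day 10 replicate 1 or day 10 replicate 3 (0.0539, 0.0513 and 0.0576).

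Genes outside the lists were among the largest increases of single genes. AREG (ENSSSCG00000008963), amphiregulin, a ligand of the epidermal growth factor receptor, was at 1.77 and 1.73 FPKM at day 2 and 1064, 117 and 47.4 FPKM at day 10. The log2 fold change was 6.05 ± 0.96 (limma adjusted p = 0.0105). Day 10 replicate 1 was many-fold above the next library, and even the lowest was far above day 2. NTS (ENSSSCG00000000932), the precursor of the peptide neurotensin, was at 2.44 and 0.912 FPKM and 219.7, 76.7 and 39.2 FPKM (5.11 ± 0.67, limma adjusted p = 0.00309). Day 10 replicate 1 was the highest day 10 library for both genes.

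PTN (ENSSSCG00000016522), pleiotrophin, a heparin-binding growth factor, was at 1.29 and 1.84 FPKM at day 2 and 37.0, 71.0 and 77.3 FPKM at day 10 (4.55 ± 0.52, limma adjusted p = 0.00115). NT5E (ENSSSCG00000004291), the surface enzyme CD73, which makes adenosine from AMP and is used to mark mesenchymal cells, was at 6.77 and 22.6 FPKM and 318, 222 and 439 FPKM (4.54 ± 0.52, limma adjusted p = 0.00124). TMEM59L (ENSSSCG00000013911), a membrane protein, was at 0.843 and 3.43 FPKM and 27.0, 50.5 and 81.6 FPKM (4.11 ± 0.60, limma adjusted p = 0.00767). PTN, NT5E, TMEM59L and PRRX2 were among the 5 higher genes called under all 22 alternatives. PRRX2, a mesenchymal homeobox gene named here for that count, was at 46.1 and 39.2 FPKM and 258, 284 and 269 FPKM (2.64 ± 0.40, limma adjusted p = 0.00804), with little spread on either day. GZMA (ENSSSCG00000016903), granzyme A, a protease of cytotoxic lymphocytes, was at 0 and 0.189 FPKM and 7.85, 65.4 and 23.2 FPKM (4.47 ± 0.79, limma adjusted p = 0.0174). GNLY, granulysin, also of cytotoxic lymphocytes, went the other way, from 5.68 and 3.85 FPKM to 0.234, 0 and 0 FPKM (-2.41 ± 0.49, limma adjusted p = 0.0349). The GNLY call held in 1 of the 8 fits with 1 library left out. The 3 tested lymphocyte markers had 0 calls, and all 10 in the table summed to 50.4 and 13.1 FPKM at day 2 and 30.4, 14.9 and 11.9 FPKM at day 10. STEAP1 (ENSSSCG00000015301), a membrane protein of the metalloreductase family, was at 0 and 2.66 FPKM and 95.5, 11.6 and 15.4 FPKM (3.82 ± 0.83, limma adjusted p = 0.0465) and missed with any single library left out except day 2 replicate 2. GZMA missed without day 2 replicate 1, day 10 replicate 2 or day 10 replicate 3 (limma adjusted p of 0.0697, 0.0578 and 0.0688).

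A minority of stress response genes passed. Over all tested genes, 0.652% were called higher and 0.54% lower. Of 18 genes of the integrated and unfolded protein stress responses, 2 rose and 0 fell, with a median of -0.32. Both calls were enzymes of serine synthesis, which the stress factor ATF4 is known to induce. Outside the list, PPP1R15A (GADD34) of the integrated stress response fell (-2.78 ± 0.58, limma adjusted p = 0.0397), as given further below. PSPH (ENSSSCG00000007748), phosphoserine phosphatase, was at 3.25 and 13.8 FPKM at day 2 and 104, 84.2 and 49.2 FPKM at day 10 (3.27 ± 0.58, limma adjusted p = 0.0174). PSAT1 (ENSSSCG00000005287), phosphoserine aminotransferase, was at 7.13 and 30.9 FPKM and 152, 75.8 and 173 FPKM (2.98 ± 0.62, limma adjusted p = 0.0397). PHGDH, the first enzyme of the route, was at 17.2 and 30.5 FPKM and 121, 84.8 and 146 FPKM and just missed (2.27 ± 0.51, limma adjusted p = 0.0575). Asparagine synthetase ASNS, another ATF4 target, overlapped at 53.1 and 60.7 FPKM and 93.5, 44.1 and 104 FPKM (0.41 ± 0.48, limma adjusted p = 0.844). The endoplasmic reticulum chaperone HSPA5 was at 1123 and 555 FPKM and 233, 193 and 521 FPKM, lower in each day 10 library, and did not pass (-1.46 ± 0.69, limma adjusted p = 0.469). PSPH and PSAT1 missed without day 2 replicate 1 (limma adjusted p of 0.127 and 0.268), and without day 10 replicate 1 (0.0503 and 0.0933) or replicate 2 (0.0875 and 0.0688). PSAT1 also missed without day 6 replicate 1, day 6 replicate 2 or day 10 replicate 3.

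Heat shock genes had 1 lower gene of 15 and a median of -0.69. It was HSPB8, a small heat shock protein of muscle that works with BAG3, at 31.1 and 43.2 FPKM and 10.4, 1.72 and 3.75 FPKM (-2.84 ± 0.61, limma adjusted p = 0.0445). None of 14 immediate early genes passed, with a median of -1.20. Of them, 9 were lower in every day 10 library than in both day 2 libraries, against 13% of all tested genes. The AP-1 subunit FOSL1 was nearest, at 80.2 and 59.4 FPKM and 11.98, 13.1 and 15.4 FPKM (-2.28 ± 0.51, limma adjusted p = 0.0575). FOSL1 passed without day 6 replicate 3 (limma adjusted p = 0.0443). None of 4 metal response genes passed (median -2.95), and the metallothionein MT1X, whose paralogs may share its reads, was at 525 and 234 FPKM and 55.1, 34.9 and 11.8 FPKM (-3.57 ± 1.00, limma adjusted p = 0.136). It passed without day 6 replicate 2 (limma adjusted p = 0.0304) and with only the 5 compared libraries in the fit. Among 16 cytokine and chemokine genes, CXCL2, a neutrophil attractant, fell from 246 and 32.2 FPKM to 4.84, 8.31 and 3.73 FPKM (-3.83 ± 0.83, limma adjusted p = 0.0470). The alarmin IL33 did not pass and was at 2.19 and 26.9 FPKM and 218, 103 and 73.9 FPKM (3.66 ± 0.83, limma adjusted p = 0.0575), and the monocyte attractant CCL2 was high on both days, at 1355 and 1783 FPKM and 3305, 2248 and 1304 FPKM (0.46 ± 0.59, limma adjusted p = 0.864). CDKN2A, which codes for the p16 and ARF cell cycle inhibitors, rose from 5.31 and 2.54 FPKM to 27.7, 43.5 and 22.7 FPKM (2.72 ± 0.54, limma adjusted p = 0.0320) as the single call among 11 p53 and arrest genes. None of 14 cell division genes passed. Their median of 0.80 became -0.55 without day 2 replicate 1 and 2.11 without day 2 replicate 2, where 3 passed as higher. Of the 8 fits with 1 library left out, HSPB8 held in 1 (without day 10 replicate 1), CXCL2 in 3 and CDKN2A in 2 (without either day 2 library). Their largest limma adjusted p was 0.163, 0.290 and 0.162.

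Other genes of the panel that was named whatever its values did not pass. The gelatinase MMP9 was at 406 and 246 FPKM at day 2 and at 578, 281 and 73.9 FPKM at day 10 (-0.46 ± 0.83, limma adjusted p = 0.917). The aggrecanase ADAMTS4 was at 52.0 and 442 FPKM and 33.9, 101 and 123 FPKM (-1.01 ± 0.79, limma adjusted p = 0.723). CYP1A1, which the aryl hydrocarbon receptor induces, was at 71.8 and 213 FPKM and 131, 55.1 and 28.1 FPKM (-1.06 ± 0.87, limma adjusted p = 0.740). In all 3 the groups overlapped. Sulfiredoxin SRXN1, an antioxidant enzyme, was lower in each day 10 library, at 241 and 130.0 FPKM and 93.3, 83.6 and 59.9 FPKM, without passing (-1.18 ± 0.56, limma adjusted p = 0.472). HMGCS1 of cholesterol synthesis overlapped, at 4.44 and 20.9 FPKM and 13.8, 9.04 and 21.1 FPKM (0.44 ± 0.69, limma adjusted p = 0.896). The lists of matrix proteases (18 genes, median -0.01), oxidant response (14 genes, median 0.21), cholesterol synthesis (19 genes, median -0.28, or 0.50 without day 2 replicate 2) and proteasome (17 genes, median -0.43) had 0 calls each.

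Calls among markers of other cells were single genes. Over all tested genes, 0.652% were called higher and 0.54% lower. Endothelial markers had 0 calls of 11 and a median of -0.91, with all 11 log2 fold changes negative. The median was -1.91 without day 2 replicate 1 and -0.01 without day 2 replicate 2. Their sum was 1128 and 2817 FPKM at day 2 and 385, 1353 and 1342 FPKM at day 10. Those sums overlapped. Macrophage markers had 0 calls of 13 and a median of -0.73, or -0.06 without day 2 replicate 1 and -1.36 without day 2 replicate 2, and summed to 909 and 169 FPKM at day 2 and 842, 241 and 48.9 FPKM at day 10. The macrophage sum was highest in replicate 1 on both days. Of 5 Schwann cell and neuron markers, the neuronal tubulin TUBB3 rose from 0.519 and 1.66 FPKM to 65.9, 13.3 and 14.1 FPKM (3.598 ± 0.74, limma adjusted p = 0.0374), and of 2 mesothelium markers the keratin KRT8 fell from 58.3 and 22.0 FPKM to 2.28, 0.4997 and 0.144 FPKM (-4.38 ± 0.94, limma adjusted p = 0.0444). Each of these rests on a single gene that other cells also make. TUBB3 held in 2 and KRT8 in 3 of the 8 fits with 1 library left out, and without day 2 replicate 1 both missed (limma adjusted p of 0.159 and 0.212).

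**Figure D4:**
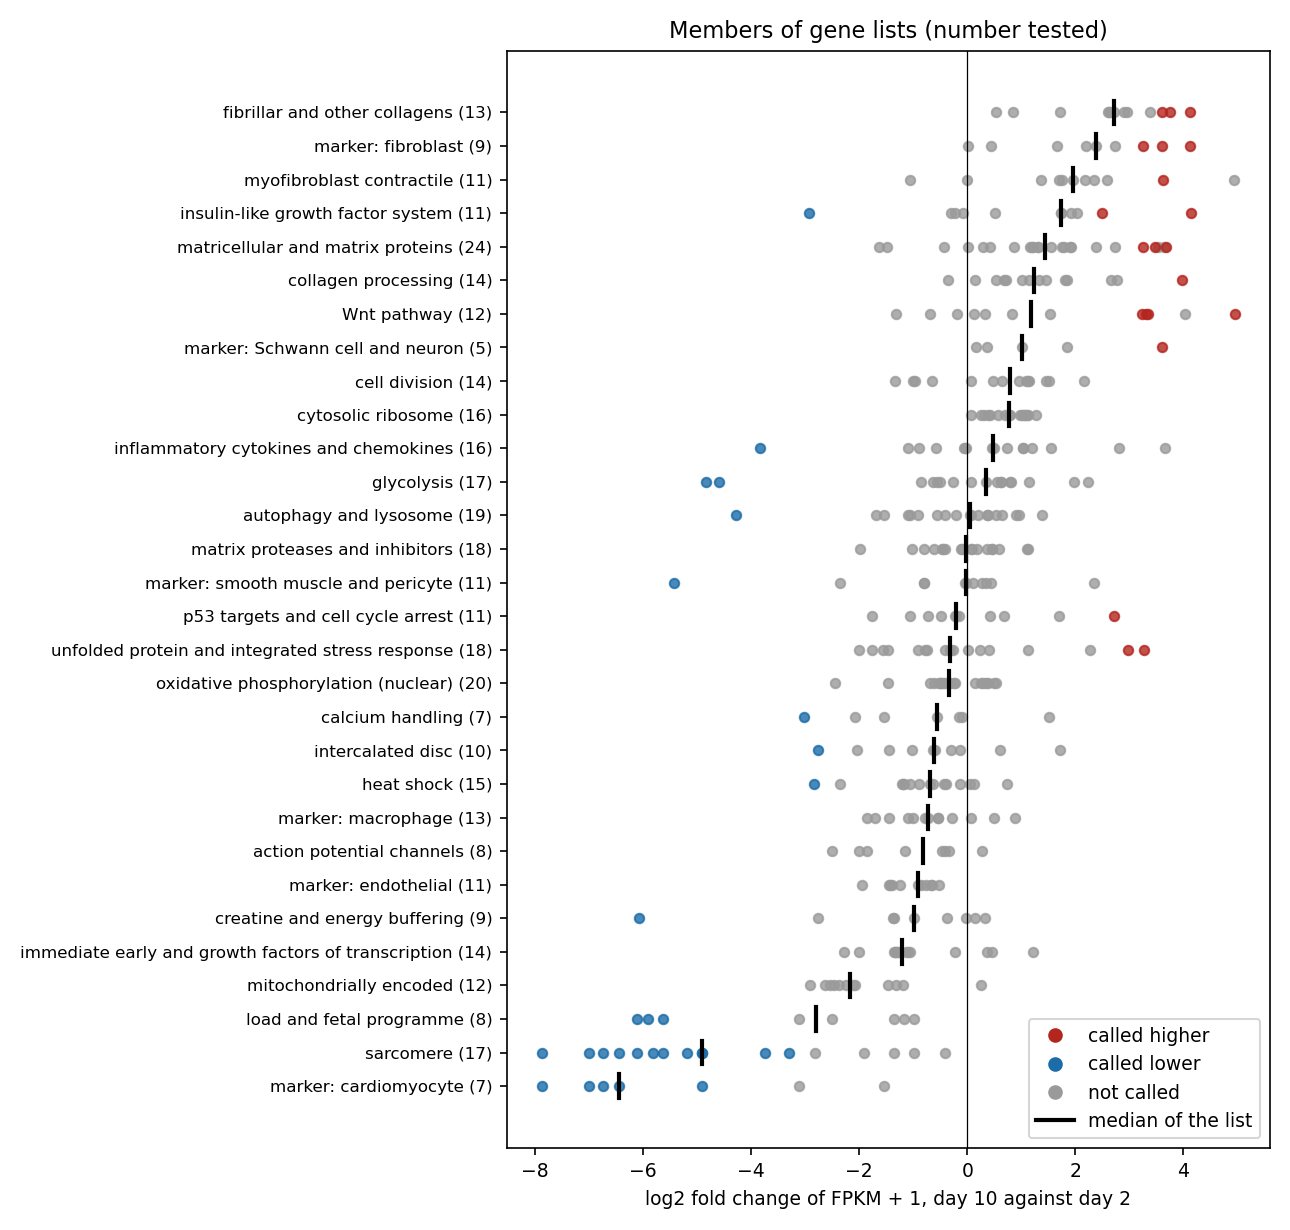
Each point is the log2 fold change (FPKM + 1, day 10 against day 2) of a tested member of a gene list, coloured by its call, and black bars mark list medians, with the number tested in brackets. The collagen, fibroblast marker and myofibroblast lists sit highest, at medians of 2.72, 2.39 and 1.95, and the sarcomere and cardiomyocyte marker lists lowest, at -4.90 and -6.44, around a median of -0.04 over all tested genes.

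Levels at day 6 were then set beside those of day 2 and day 10. For the 82 higher genes, the median FPKM was 2.45 and 5.47 in the day 2 libraries, 3.53, 3.83 and 2.91 in the day 6 libraries and 64.6, 59.1 and 45.0 in the day 10 libraries. The day 6 libraries thus stood within the range of the day 2 libraries. For the 68 lower genes the median was 60.5 and 30.7 FPKM at day 2, 102, 152 and 138 FPKM at day 6 and 2.83, 1.41 and 1.66 FPKM at day 10. Here every day 6 library stood above both day 2 libraries. Fresh slices had 204, 269 and 203 FPKM for these genes and 4.12, 1.54 and 2.93 FPKM for the higher genes. The day 6 mean lay outside the span from day 2 to day 10, on the side of day 2, in 42 of the 82 higher genes (51.2%) and in 59 of the 68 lower genes (86.8%). Among all tested genes with a positive log2 fold change that share was 27.7%, and among those with a negative one it was 70.9%. In 0 of the 150 genes was the day 6 mean beyond day 10. Among all tested genes that share was 43.0% for a positive log2 fold change and 9.02% for a negative one. The 150 genes were chosen on the day 2 and day 10 values, with day 6 in the fit. The same values enter both steps, so these shares are a description and were not tested.

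**Figure D5:**
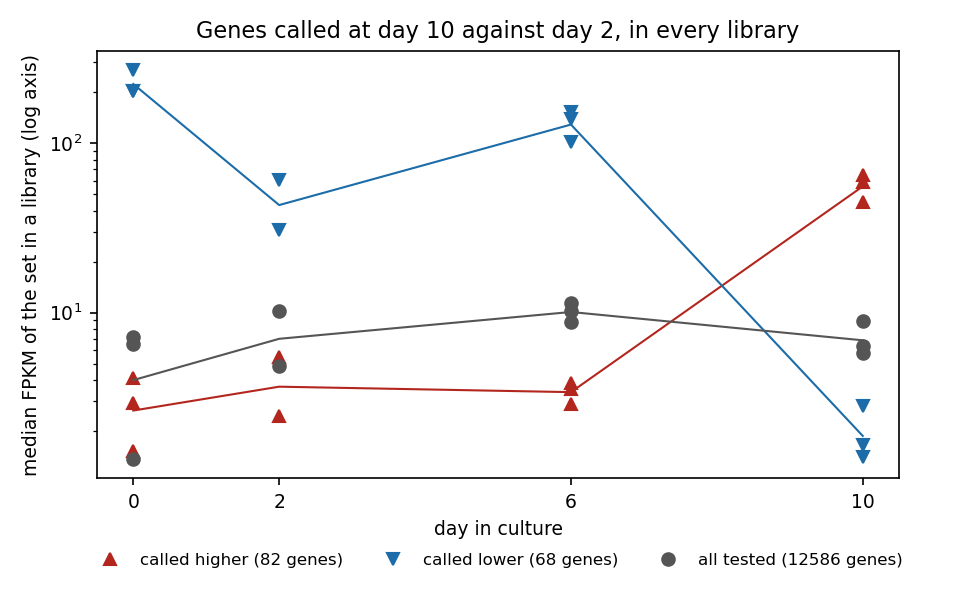
Each symbol is the median FPKM of 1 library, on a log axis, over the 82 genes called higher, the 68 called lower or all 12586 tested genes, by day in culture, and lines join the geometric means of a day. The 2 called sets were chosen on day 2 and day 10, and at day 6 the lower set stands at 102 to 152 FPKM and the higher set at 2.91 to 3.83 FPKM.

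Single genes are given beside the sets. MYH6 was at 24753, 6878 and 19576 FPKM in fresh slices and at 2063, 5295 and 2096 FPKM at day 6. ACTN2 was at 147, 270.2 and 289 FPKM at day 6, above both day 2 libraries. CKMT2 was at 263, 477 and 276 FPKM at day 6 and at 1054, 696 and 1064 FPKM in fresh slices. In each of these 3 muscle genes the order from high to low was fresh, day 6, day 2 and day 10, by group mean. COL3A1 was at 238, 226 and 116 FPKM at day 6 and at 1146, 92.5 and 934 FPKM in fresh slices, and TAGLN at 21.0, 87.5 and 12.8 FPKM and 174, 297 and 92.9 FPKM. At day 6 TAGLN lay below both day 2 libraries. For COL3A1, 1 fresh library was above the lowest day 10 library and 1 was close to it. Fresh replicate 2, the library with 4536 genes at 0, was far lower. AREG and NTS were under 1 FPKM in every day 6 library and every fresh library.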

How the data were processed

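Expression was deposited as 1 table of FPKM values for 16319 pig genes in 11 libraries (fresh, day 2, day 6 and day 10), made by the authors. Bowtie 0.12.2 and a mouse build, mm8, are listed without a role, per the submitters' processing notes, while the gene identifiers are of pig. The counting of reads shared between genes is not given in the sources used here. FPKM were taken as log2(FPKM + 1). Genes with a mean of at least 1 FPKM over the 8 cultured libraries were tested with limma 3.58.1 in R 4.3.3 (empirical Bayes with an intensity trend), with day 2, day 6 and day 10 as groups and no covariate. Day 6 shares the estimate of the spread, and the fresh slices entered neither the fit nor the filter. Each called gene passed a Benjamini-Hochberg adjusted p of 0.05 over all tested genes. Errors in the text are standard errors of the log2 fold change.

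The deposited FPKM are whole multiples of the worth of 1 read within a tolerance of 0.01 for all 16073 genes above 0, which gave reads per library. Depth is given in reads, and intervals from these would cover counting error only.

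Named genes were the 12 called genes with the largest change in each direction that had a symbol, at least 5 FPKM on average on the higher day and no overlapping libraries, up to 4 called members of each gene list with at least 2 called (51 lists in all), and a panel of 25 genes where tested, with the summed level of mitochondrially encoded genes. Of the genes this rule names, 1 is not reported here. Other genes were chosen after their values were seen. The members and lists were chosen with earlier results of these data known. The procedure was tested on simulated data with independent normal errors. These data held no outlying library and no effect of gene length, so that test cannot speak to either. In addition, 22 alternatives were run over the filter, pseudocount, scaling, variance model, groups, replicate number, recovered reads and each library left out.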

Additional observations from a re-analysis of the deposited data

How the results depend on the processing

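Against 150 called genes (82 higher, 68 lower), the count was 84 (42 and 42) with all 11 libraries in the fit, 65 (28 and 37) with the 5 compared libraries alone, 77 (39 and 38) without the filter, 74 (37 and 37) with array weights and 41 (26 and 15) with voom on recovered reads. Higher genes numbered 48 with a pseudocount of 0.1 and 53 with equal totals, and lower genes 43 with a pseudocount of 5. Leaving out 1 library gave 46 to 566 genes, 22 to 389 higher and 24 to 177 lower, and moved the median log2 fold change of all tested genes between -0.44 and 0.37. Called list members, 42 in the main result, numbered 27 with all 11 libraries, 19 with voom and 17 to 79 with a library left out. Sarcomere genes called lower went from 12 to 7 with voom. The 3 collagen calls became 0 with all 11 libraries or quantile normalization, 1 with the 5 compared libraries, a pseudocount of 0.1, no filter, no intensity trend or voom, and 0 to 8 with a library left out. The cause was not tested.

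The replicate number as a block gave 237 calls, 138 of them higher, and 5 collagen calls. Same-numbered libraries of day 2 and day 10 had deviations correlated at 0.332 for number 1 and -0.135 for number 2, those of day 2 and day 6 at 0.299 and -0.104, and those of day 6 and day 10 at 0.280, 0.242 and 0.178 for numbers 1 to 3. The positive day 6 and day 10 values are a hint of pairing from the data, without values of differently numbered libraries to set beside them. The 2 day 2 libraries deviate from their mean by equal and opposite amounts, so the day 2 values of numbers 1 and 2 are not independent. The labels do not tie a number to an animal and not every pair was above 0.1, so the block was kept as an alternative.

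Of the named genes, 6 that did not pass changed the sign of their log2 fold change, in 8 cases. MMP9 was at 0.32 with the block, ASNS at -0.10 with array weights and CCL2 at -0.26 with quantile normalization. With a library left out, ADAMTS4 ranged from -2.54 (day 2 replicate 1) to 0.52 (day 2 replicate 2), MMP9 from -1.13 (day 10 replicate 1) to 0.35 (day 10 replicate 3), SPP1 from -0.59 (day 2 replicate 2) to 1.45 (day 2 replicate 1), with -0.28 without day 10 replicate 1, and HMGCS1 from -0.56 (day 2 replicate 1) to 1.45 (day 2 replicate 2). Day 2 has 2 libraries, and replicate 1 stands apart by its genes at 0. In summed sarcomere FPKM replicate 2 was the lower, at 3470 against 20878 in replicate 1 and 18157 to 38971 at day 6. The small number and the spread of the day 2 libraries limit the precision of each call, and depth limits genes of low FPKM.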

Other observations

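Of the 98 called genes with a symbol, 39 higher and 17 lower ones stood in none of the 51 lists. A further 25 higher and 27 lower genes had an identifier alone. The genes named from here on were chosen after their values were seen. The collagen chaperone FKBP10 was at 11.9 and 45.9 FPKM at day 2 and 113, 169.8 and 364 FPKM at day 10 (2.97 ± 0.61, limma adjusted p = 0.0377), and EFEMP2 (fibulin-4), which helps to assemble elastic fibres, was at 1.32 and 1.73 FPKM and 16.1, 22.1 and 41.4 FPKM (3.35 ± 0.56, limma adjusted p = 0.0124). CTHRC1, a secreted protein of activated fibroblasts, was at 5.71 and 8.46 FPKM and 28.3, 45.8 and 42.8 FPKM (2.30 ± 0.48, limma adjusted p = 0.0394). The secreted serine protease HTRA1 was at 76.2 and 129 FPKM and 301, 576 and 859 FPKM (2.40 ± 0.51, limma adjusted p = 0.0423). In each of these 4 genes, as in every gene called higher, all day 10 libraries lay above both day 2 libraries. FKBP10, CTHRC1 and HTRA1 each held in 2 of the 8 fits with 1 library left out, and EFEMP2 in 5, and without day 2 replicate 1 all 4 missed.

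PTGES, the inducible synthase of prostaglandin E2, was at 55.6 and 24.0 FPKM at day 2 and 267, 343 and 188 FPKM at day 10 (2.79 ± 0.51, limma adjusted p = 0.0218), and the inducible cyclooxygenase PTGS2 upstream of it was at 20.5 and 11.96 FPKM and 29.5, 32.7 and 37.0 FPKM and did not pass (1.02 ± 0.60, limma adjusted p = 0.592). PTGES missed without day 10 replicate 2 or day 2 replicate 2 (limma adjusted p of 0.105 and 0.0554). INHBE, a liver-type activin subunit gene, was listed at 0 in both day 2 libraries and was at 6.68, 6.79 and 11.1 FPKM at day 10 (limma adjusted p = 0.00785). INHBE, C1QTNF12 and the kinesin gene KIF12 held with each library left out in turn. The sarcoglycan gene SGCA, part of the complex that ties the muscle membrane to the matrix, went from 35.0 and 11.3 FPKM to 0.990, 0.570 and 0.957 FPKM (-3.52 ± 0.60, limma adjusted p = 0.0146), and muscle filamin FLNC from 211 and 51.4 FPKM to 3.51, 9.72 and 23.0 FPKM (-3.33 ± 0.71, limma adjusted p = 0.0445). PPP1R15A (GADD34), a stress-induced phosphatase subunit, went from 211 and 108 FPKM to 14.7, 24.7 and 25.7 FPKM (-2.78 ± 0.58, limma adjusted p = 0.0397). The peptide gene CCK, cholecystokinin, was at 45.0 and 45.6 FPKM and 1.01, 0.884 and 1.64 FPKM (-4.42 ± 0.67, limma adjusted p = 0.00804), with 632, 2479 and 1400.0 FPKM in fresh slices. SGCA held in 6, FLNC in 2, PPP1R15A in 2 and CCK in all 8 of the fits with 1 library left out.

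Of genes without a symbol, ENSSSCG00000002980 rose from 0 and 2.38 FPKM to 333, 228 and 51.8 FPKM (6.44 ± 0.77, limma adjusted p = 0.00149) and held with each library left out in turn. ENSSSCG00000009830 fell from 9691 and 1512 FPKM to 33.8, 25.0 and 11.3 FPKM (-7.42 ± 0.72, limma adjusted p = 5.04e-04).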
